A study of Mus musculus with 4 samples.

Results

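Induced 3T3-L1 cells were set against induced C3H10T1/2 cells 4 days after adipogenic induction, which asks how unlike the 2 mouse cell lines were once both had entered the differentiation protocol. The comparison rests on 2 of the 4 arrays of the series, chosen by their labels: the 3T3-L1 array at day 4 and the C3H10T1/2 array at day 4. A probe was compared if either array showed it well above background, which held for 38917 of 60900 probes (63.9%). The array was a mouse long noncoding RNA and mRNA design, and total RNA was labelled with Cy3 after removal of ribosomal RNA. The other 2 arrays held the same lines at day 0 of induction and serve here as the background of line differences present at the start. There was 1 array per group, so no difference below has a replicate check and no p-value is given. The agents used for induction, the passage of the cells and the number of cultures behind each RNA are not given in the sources used here.

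C3H10T1/2 is a fibroblast-like line of multipotent mesenchymal cells from mouse embryo that can be driven towards fat, bone, cartilage or muscle. 3T3-L1 is a line of preadipocytes, cells already committed to the fat lineage, and is the standard model of adipocyte conversion in culture. In adipogenesis, hormonal induction is followed by activation of C/EBP transcription factors and then of PPARgamma, which switch on the genes of lipid uptake, triglyceride synthesis and glucose use. The files tie only 15 probes to a gene, each by a RefSeq mRNA accession, and markers of adipocytes, preadipocytes, bone, cartilage, muscle and macrophages are not among them. The labelled cell types and the degree of differentiation could therefore not be checked against markers. In RNA of a whole culture, fewer cells of a type and less RNA per cell cannot be told apart.

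The arrays were alike in detection, brightness and saturation, while some control probes described further on differed between them. Between 59.0% and 63.9% of probes were above background on the 4 arrays (60.1% for C3H10T1/2 and 60.6% for 3T3-L1 at day 4), the 75th percentile of intensity lay between 321 and 388, and 0 spots were saturated. Of 300 negative control spots per array, 3 to 6 were above background. Intensities below are as scanned, unscaled between arrays, while levels and folds are log2 intensities relative to the 75th percentile of the same array, and differences are 3T3-L1 minus C3H10T1/2.

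At a 2-fold difference or more, 2581 probes (6.63% of those tested) were higher in 3T3-L1 at day 4 and 3231 probes (8.3%) were higher in C3H10T1/2. Together these were 14.9% of the probes tested, and 44.4% of them were on the 3T3-L1 side. Where a probe was above background in 1 line only, the fold was computed against the lowest signal above background of the dim array or its own signal, whichever was higher, and is a lower bound. Such bounds made up 663 of the calls on the 3T3-L1 side and 855 of those on the C3H10T1/2 side. The day 0 arrays had a similar share past 2-fold, 14.0% of 39960 probes, with the larger number on the other side: 3050 probes (7.63%) were higher in 3T3-L1 and 2544 (6.37%) in C3H10T1/2. With 1 array per group, whether this shift of balance exceeds the spread between cultures could not be tested.

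The C3H10T1/2 side was the larger one at each fold counted at day 4. At 1.5-fold, 6265 probes (16.1%) were higher in 3T3-L1 and 6531 (16.8%) in C3H10T1/2. At 4-fold the counts were 696 (1.79%) and 911 (2.34%), at 8-fold 293 and 350, and at 16-fold 135 (0.347%) and 160 (0.411%). Differences of 64-fold or more were seen for 24 probes on the 3T3-L1 side and 48 on the C3H10T1/2 side.

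**Figure D1:**
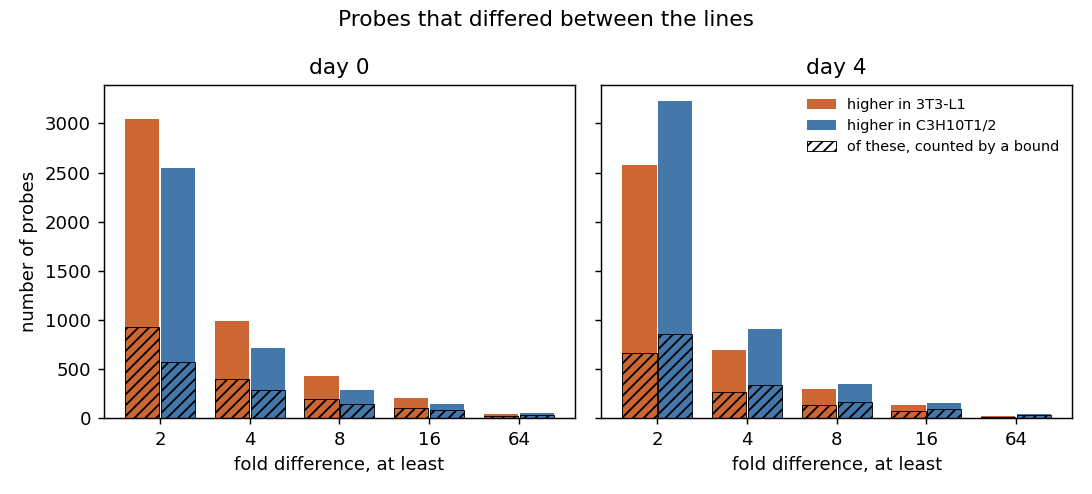
Number of probes (vertical axis) at or past each fold (horizontal axis) between the lines at day 0 (left) and day 4 (right), as orange bars for those higher in 3T3-L1 and blue bars for C3H10T1/2. The hatched part of a bar was counted by a bound. At 2-fold the day 4 counts were 2581 for 3T3-L1 and 3231 for C3H10T1/2, while the day 0 counts were 3050 and 2544.

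Most of the signal was alike in the 2 induced lines. Over the 34547 probes above background on both day 4 arrays, the median difference was 0.03, the quartiles were -0.33 and 0.36, and 70.8% of probes lay within 1.5-fold. The 5th and 95th percentiles were -1.19 and 1.05, so the tail was slightly longer on the C3H10T1/2 side. Pearson's r between the day 4 arrays was 0.956 over the 32829 probes above background on all 4 arrays. That r is across probes that share a labelling and an array design and is given as a description. The median size of the difference over these probes was 0.35 between the lines at day 4 and 0.34 between the lines at day 0. The share of them past 2-fold was 12% at day 4 and 11% at day 0. Between day 0 and day 4 of the same line, 13.6% of these probes differed by 2-fold in C3H10T1/2 and 17% in 3T3-L1. Between unlike lines at unlike days the share was 20.7% (C3H10T1/2 at day 0 and 3T3-L1 at day 4) or 18% (C3H10T1/2 at day 4 and 3T3-L1 at day 0).

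**Figure D2:**
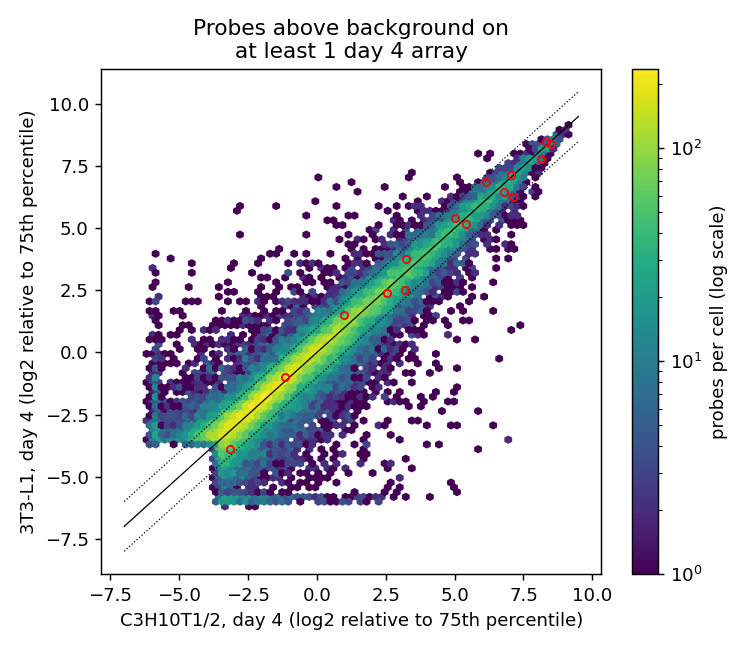
Measured level of the 38917 probes above background on either day 4 array, as log2 intensity relative to the array's 75th percentile, in C3H10T1/2 (horizontal axis) and 3T3-L1 (vertical axis); colour gives the number of probes per cell on a log scale, the solid line marks equal levels, dotted lines mark 2-fold and red circles mark the 15 named genes. The named genes lie between the 2-fold lines, and the bands at the left and lower edges are probes dim in 1 line, whose folds were counted as bounds.

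The median size of the difference varied little with brightness, while the share past 2-fold was lowest for dim probes. When the 34547 probes above background in both lines were split into 5 equal bins by mean intensity, the median size of the difference was 0.32 in the dimmest bin (median intensity 53.8) and 0.32 in the brightest (median intensity 5880), with 0.35, 0.37 and 0.39 between them. The share past 2-fold in either direction was 7.26% in the dimmest bin, 15.6% in the second brightest and 10.8% in the brightest. Probes seen in 1 line only are not in these bins, which limits how far apart 2 dim values can be. The share higher in C3H10T1/2 was above the share higher in 3T3-L1 in each bin, from 3.72% against 3.55% in the dimmest to 8.67% against 6.89% in the second brightest bin and 6.25% against 4.53% in the brightest.

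The lines also differed in which probes gave a signal at all. At day 4, 34547 probes were above background in both lines, 2335 in 3T3-L1 only, 2035 in C3H10T1/2 only and 21983 in neither. Most of these line-restricted signals were faint. Of the 2335 found in 3T3-L1 only, 663 were at least 2-fold and 136 at least 8-fold above the bound, up to at least 230-fold. Of the 2035 found in C3H10T1/2 only, 855 were at least 2-fold and 162 at least 8-fold above it, up to at least 921-fold. On the day 0 arrays the imbalance was larger, with 4051 probes above background in 3T3-L1 only and 1015 in C3H10T1/2 only.

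The probes seen in only 1 line at day 4 were looked up on the day 0 arrays. Of the 2335 probes seen in 3T3-L1 only at day 4, 1014 (43.4%) were also seen in 3T3-L1 only at day 0, 570 were above background in both lines then, 707 in neither and 44 in C3H10T1/2 only. Of the 2035 seen in C3H10T1/2 only at day 4, 370 (18.2%) were so at day 0, whereas 847 were above background in both lines at day 0, 525 in neither and 293 in 3T3-L1 only. The share with the same pattern at day 0 was larger for the 3T3-L1 set, but its baseline was larger too. The 3T3-L1 array had the most probes above background at day 0. Of all 60900 probes, 4051 were seen in 3T3-L1 only at day 0 and 1015 in C3H10T1/2 only. The 2 shares therefore do not rank the lines by how often such a pattern was kept. The part of the unlike baselines in the difference was not tested.

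The line differences were then read against day 0, whose arrays are not those of the day 4 contrast. Of the 2581 probes higher in 3T3-L1 at day 4, 1081 were also at least 2-fold higher there at day 0, which was 41.9% of the day 4 probes and 35.4% of the day 0 probes. Of the 3231 higher in C3H10T1/2 at day 4, 1037 were so at day 0, 32.1% of the day 4 probes and 40.8% of the day 0 probes. Over all 39960 probes tested at day 0, 7.63% were at least 2-fold higher in 3T3-L1 and 6.37% in C3H10T1/2. The opposite order at day 0 was seen for fewer of the day 4 probes than the same order. Among the probes higher in 3T3-L1 at day 4, 45 had been at least 2-fold higher in C3H10T1/2, 1289 differed by less than 2-fold and 166 were below background on both day 0 arrays. Among those higher in C3H10T1/2 at day 4, 156 had been at least 2-fold higher in 3T3-L1, 1789 were under 2-fold and 249 were below background.

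At higher day 4 folds, a larger share of probes was at least 2-fold apart the same way at day 0. The day 0 cut stayed at 2-fold while the day 4 cut rose, so part of this rise is built in. With 4-fold required on both days, 415 of 696 probes were shared on the 3T3-L1 side and 304 of 911 on the C3H10T1/2 side. With 2-fold on both days, these were 1081 of 2581 and 1037 of 3231. With equal cuts on both days, the share thus rose on the 3T3-L1 side but hardly on the C3H10T1/2 side. Of the probes at least 4-fold apart at day 4, 74.6% of those higher in 3T3-L1 (519 of 696) and 52.3% of those higher in C3H10T1/2 (476 of 911) were at least 2-fold apart the same way at day 0. At 8-fold these shares were 77.8% and 64%. At 16-fold they were 78.5% (106 of 135) and 76.9% (123 of 160), so the lines' shares were closest among the strongest differences. Across the 32829 probes above background on all 4 arrays, the day 4 and day 0 line differences had Pearson's r of 0.47 and Spearman's rho of 0.30, given as a description over probes that share 4 arrays.

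The probes that separated the lines at day 4 but were under 2-fold at day 0 were traced to the line that had moved; these counts use the day 4 arrays that chose the probes and are a description. For the 1289 such probes higher in 3T3-L1, 588 (45.6%) were at least 2-fold up from day 0 in 3T3-L1 alone, 168 (13%) were at least 2-fold down in C3H10T1/2 alone, 12 met both criteria and 521 (40.4%) met neither. For the 1789 probes higher in C3H10T1/2, 685 (38.3%) were at least 2-fold down in 3T3-L1 alone, 476 (26.6%) were at least 2-fold up in C3H10T1/2 alone, 49 met both and 579 (32.4%) met neither. A fall was counted even where a probe was below background on both days of that line, so the counts of falls may include such probes. By these counts the more frequent mover on both sides was 3T3-L1. That line also had the larger count of probes past 2-fold over time: 3399 up (8.45%) and 4273 down (10.6%) of 40237 tested, against 3262 up (8.52%) and 2919 down (7.62%) of 38303 in C3H10T1/2.

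Probes that had moved the same way in both lines were past 2-fold between the lines at day 4 more often than all tested probes, of which 85.1% were within 2-fold, 6.63% on the 3T3-L1 side and 8.3% on the C3H10T1/2 side. Of the 1551 probes up at least 2-fold in both lines, 75.5% were within 2-fold at day 4, 213 (13.7%) were higher in 3T3-L1 and 167 (10.8%) in C3H10T1/2, with a median difference of 0.13. Of the 1321 probes down at least 2-fold in both lines, 1168 were still above background on a day 4 array. Among those, 66.4% were within 2-fold, 78 (6.68%) were higher in 3T3-L1 and 314 (26.9%) in C3H10T1/2, and the median difference was -0.33 against 0.03 over all tested probes. The repressed probes were thus lower in 3T3-L1 at day 4 in the median, a description from the same arrays that chose them.

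The probes fall into series by their identifiers. The largest, ASMM10P, held 97.7% of the tested probes and 98.6% of those past 2-fold, so its shares are nearly those of the whole array (6.63% and 8.3%). Of 38012 ASMM10P probes, 2542 (6.69%) were higher in 3T3-L1 and 3186 (8.38%) in C3H10T1/2. The ASMM10UP series had 20 (5.62%) and 26 (7.3%) of 356. Probes named for human lincRNAs, long intergenic noncoding RNAs, had 12 (3.82%) and 16 (5.1%) of 314, and were seldom detected on these mouse samples: 26.1% of the 1102 such probes were above background in 3T3-L1 and 24.8% in C3H10T1/2. Probes named for mouse lincRNAs were detected at a like rate, 27.7% and 25.3% of 649. Of their 187 tested probes, 7 (3.74%) were at least 2-fold higher in 3T3-L1 and 1 (0.535%) in C3H10T1/2. A last series named for lincRNA exons had 0 and 2 of 33. The median difference was 0.03 in the first 2 series, 0.11 in both lincRNA series and 0.07 in the exon series.

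Probes without a gene are named only at the ends of the ranking, among those above background in both induced lines. The highest was ASMM10P033145, with an intensity of 49.1 in C3H10T1/2 and 21011 in 3T3-L1, a difference of 8.77 or 437-fold. The next was ASMM10P027376, at 50.7 and 17805, a difference of 8.49 or 359-fold. Both were also higher in 3T3-L1 at day 0, at larger folds than at day 4. At day 0 ASMM10P033145 was not well above background in C3H10T1/2 (9.94) and at 24144 in 3T3-L1, at least 817-fold higher. ASMM10P027376 was at 32.3 and 48197 at day 0, 1240-fold higher in 3T3-L1.

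The lowest of the ranking was ASMM10P014191, at 45891 in C3H10T1/2 and 29.5 in 3T3-L1, a difference of -10.57 or 1520-fold higher in C3H10T1/2. The next was ASMM10P051222, at 41694 and 32.1, a difference of -10.31 or 1270-fold. These were also near background in 3T3-L1 at day 0. At day 0 ASMM10P014191 was at 13180 in C3H10T1/2 and not well above background in 3T3-L1 (4.95), at least 640-fold higher in C3H10T1/2, and ASMM10P051222 was at 78112 and 35.5, 2650-fold higher in C3H10T1/2. The folds of these 4 probes rest on a dim array and moved with the background correction, down to 7.41 and 7.04 on the 3T3-L1 side and to -8.80 and -8.36 on the C3H10T1/2 side, without a change of direction.

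The 15 probes with a gene were each printed in 20 spots per array, so their error below is the SD of the difference over spots paired by position, a technical error of these 2 arrays only. None of the 15 reached 2-fold at day 4, where 14.9% of all tested probes did; at day 0 Tfrc and Ldhal6b had, although Ldhal6b fell to at least 1.89-fold with quantile normalization and to 1.31-fold with normexp. At 1.5-fold, where 16.1% of all tested probes were higher in 3T3-L1 and 16.8% in C3H10T1/2, Hsp90ab1 was higher in 3T3-L1, and Tfrc, Gusb and Ldhal6b were higher in C3H10T1/2. The Ldhal6b call was lost with normexp, at 1.16-fold. The median of the 15 differences was -0.10 and their median size 0.33, against 0.39 over all tested probes. The median spot SD was 0.08, from 0.06 to 0.37. For 8 of the 15 the spots of the 2 arrays did not overlap. The same held for most of the control probes named for Gapdh and Pgk1. The spot SD was small beside the usual difference of 0.39, so a lack of overlap does not set these genes apart. Relative to day 0, the size of the line difference was smaller at day 4 for 7 genes and larger for 8, and 9 genes had the opposite sign. These counts depended on the scaling: with quantile normalization, 8 genes were smaller and 7 larger at day 4 and 8 had the opposite sign. The sign count changed because the day 0 sign of Gapdh turned. Gapdh and B2m went from larger to smaller at day 4, and Tuba1b from smaller to larger. The sign at day 4 was kept for 15 of 15 genes over the 5 scalings tried.

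**Figure D3:**
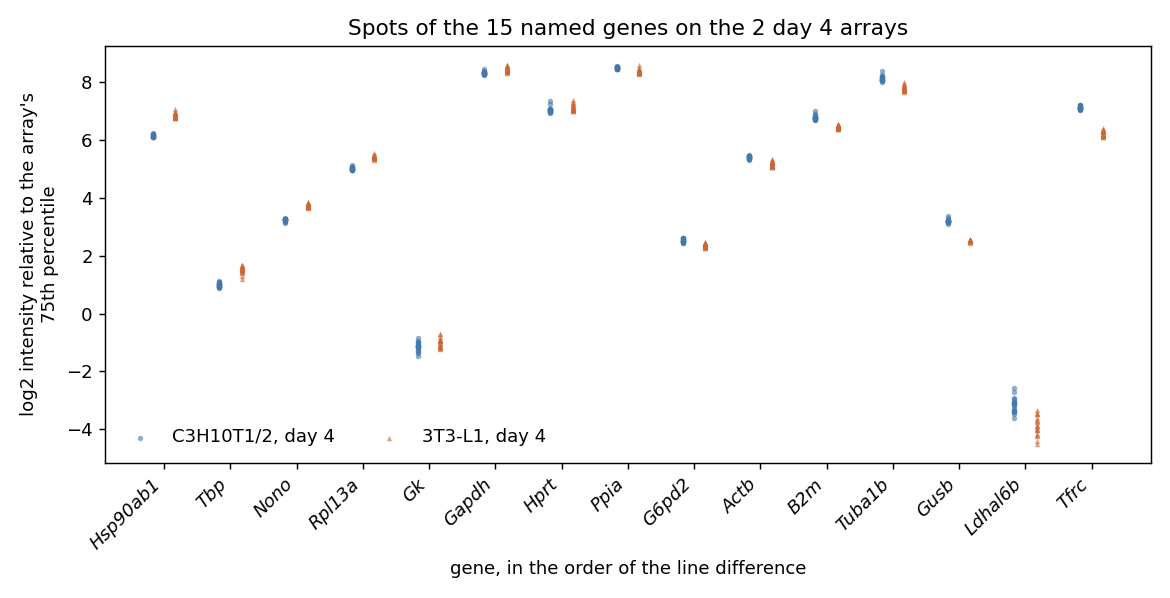
Level of every spot used for the 15 named genes on the day 4 arrays, as log2 intensity relative to the array's 75th percentile (vertical axis), with circles for C3H10T1/2 and triangles for 3T3-L1. The genes stand in the order of their line difference, from Hsp90ab1 (0.73) to Tfrc (-0.88), and the spots of 8 genes do not overlap between the lines.

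Tfrc encodes the transferrin receptor, through which cells take up iron bound to transferrin. At day 4 its intensity was 50550 in C3H10T1/2 (spots from 48116 to 53778) and 26964 in 3T3-L1 (spots from 24637 to 30499). All 20 spots were lower in 3T3-L1 and the arrays did not overlap. The difference was -0.88 ± 0.09 (SD over 20 spots), or 1.84-fold higher in C3H10T1/2, and 81.4% of tested probes differed by less. The order was the reverse of day 0, when Tfrc was at 5240 in C3H10T1/2 and 14999 in 3T3-L1, a difference of 1.25 ± 0.07 or 2.37-fold higher in 3T3-L1. From day 0 to day 4 the level was higher by 3.09 ± 0.08 in C3H10T1/2 and by 0.97 ± 0.09 in 3T3-L1. It was the only gene of its list of 5 iron uptake genes that could be named.

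Hsp90ab1, which encodes the constitutively expressed cytosolic chaperone HSP90-beta, had the largest difference on the 3T3-L1 side. Its intensity was 25725 in C3H10T1/2 (24760 to 27460) and 41683 in 3T3-L1 (38322 to 47396), with no overlap of spots. The difference was 0.73 ± 0.10 (17 paired spots), or 1.65-fold, and 75.4% of tested probes differed by less. At day 0 it was at 24707 and 30158, which after scaling was a difference of 0.02 ± 0.07. Between the days the level moved by 0.59 ± 0.08 in 3T3-L1 and by -0.12 ± 0.08 in C3H10T1/2.

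Among the genes of sugar and glycerol metabolism, the probes tied to Gapdh, G6pd2 and Gk differed by less than 1.5-fold between the lines. For Gapdh the array also holds control probes, described further on, which gave larger differences. Gapdh, the glycolytic glyceraldehyde-3-phosphate dehydrogenase, was at 116167 in C3H10T1/2 and 124566 in 3T3-L1, with overlapping spots and a difference of 0.13 ± 0.07. Its day 0 difference was -0.12 and depended on the scaling, at 0.25 with quantile normalization and 0.28 with normexp. G6pd2, a retrogene for glucose-6-phosphate dehydrogenase, the enzyme that supplies NADPH through the pentose phosphate pathway, was at 2106 and 1850, a difference of -0.16 ± 0.10. G6pd2 is nearly identical to G6pdx, and which copy its probe read cannot be told apart here. The G6pd2 level was higher at day 4 than at day 0 by 1.45 ± 0.08 in C3H10T1/2 and by 1.40 ± 0.10 in 3T3-L1.

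Gk encodes glycerol kinase, which makes glycerol-3-phosphate, the backbone of triglycerides, from free glycerol. It was at 165 in C3H10T1/2 and 180 in 3T3-L1 at day 4, with overlapping spots and a difference of 0.16 ± 0.13. At day 0 it had been lower in 3T3-L1, 139 against 167, a difference of -0.55 ± 0.12. Ldhal6b, a lactate dehydrogenase-like gene, was near background. At day 4 it was at 41.5 in C3H10T1/2, where 18 of 19 spots were above background, and at 24.8 in 3T3-L1, where 5 of 19 were, so the probe was not well above background there. The fold was at least 1.65 higher in C3H10T1/2, while the measured difference was -0.72 ± 0.37 and its spots overlapped. With normexp the difference was -0.21, or 1.16-fold, so the bound holds only for the background correction of the scanner software. At day 0 it was at least 2.03-fold higher in 3T3-L1, at 60.2 against 22.0 with 0 spots above background in C3H10T1/2, and 1.31-fold with normexp. The 3 genes of this group beside Gapdh, out of 8 on the list, had a median difference of -0.16. Gapdh was the only one of 14 glycolysis genes among the named genes. Pgk1, also on the glycolysis list, had control probes only, described further on.

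Genes used to normalise expression measurements, 9 of the 18 on that list, did not share a direction. These were Tbp, Rpl13a, Gapdh, Hprt, Ppia, Actb, B2m, Gusb and Tfrc, while Pgk1, also on that list, had control probes only. None of the 9 reached 2-fold, and 2 (Gusb and Tfrc) were at least 1.5-fold higher in C3H10T1/2 and none in 3T3-L1, beside 16.8% and 16.1% of all tested probes. Of the 9, 4 were above 0 and 5 below, and their median was -0.10. Tbp, the TATA-binding protein of the basal transcription machinery, was higher in 3T3-L1, at 1026 (806 to 1142) against 725 (668 to 785), a difference of 0.53 ± 0.12 or 1.44-fold. Rpl13a, a protein of the large ribosomal subunit, was higher in 3T3-L1 as well, at 15276 against 11751, a difference of 0.41 ± 0.07. The spots of both genes did not overlap.

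Gusb and B2m were lower in 3T3-L1, again without overlap of spots. Gusb, the lysosomal enzyme beta-glucuronidase, was at 3353 in C3H10T1/2 (3142 to 3758) and 2054 in 3T3-L1 (1934 to 2113), a difference of -0.67 ± 0.07 or 1.60-fold higher in C3H10T1/2. B2m, the light chain of MHC class I molecules, was at 40084 and 31550, a difference of -0.31 ± 0.08. Both had been higher in 3T3-L1 at day 0, by 0.14 ± 0.05 and 0.15 ± 0.08. Over the scalings the day 0 values ranged from 0.14 to 0.20 for Gusb and from 0.15 to 0.42 for B2m. Whether the B2m difference was larger at day 0 or at day 4 (-0.31 to -0.20) depended on the scaling. The levels of both genes were lower at day 4 than at day 0 in 3T3-L1, by 0.89 ± 0.04 for Gusb and by 0.81 ± 0.06 for B2m. In C3H10T1/2 they moved by -0.08 ± 0.06 and -0.35 ± 0.07.

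Hprt and Ppia were close together in the lines at day 4. Hprt, a purine salvage enzyme, was at 48110 in C3H10T1/2 and 50252 in 3T3-L1 at day 4, a difference of 0.09 ± 0.14, against -0.67 ± 0.08 at day 0 (from -0.67 to -0.51 over the scalings). Ppia, the prolyl isomerase cyclophilin A, was at 130989 and 119586, a difference of -0.10 ± 0.08, against -0.61 ± 0.07 at day 0, which ranged from -0.61 to -0.17 over the scalings. The spots of each gene overlapped at day 4. Some of the named genes, among them Ppia, Gapdh, Actb and Tuba1b, have near-identical copies or pseudogenes in the mouse genome that a probe may also read.

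The cytoskeletal genes Actb (beta-actin) and Tuba1b (an alpha-tubulin) were on the C3H10T1/2 side. Actb was at 15414 in C3H10T1/2 and 12931 in 3T3-L1, a difference of -0.22 ± 0.06 that all 20 spots shared in direction. Tuba1b was at 101942 and 79497, a difference of -0.33 ± 0.06, without overlap of spots. Both differences had the same direction at day 0, at -0.67 ± 0.05 for Actb and -0.51 ± 0.05 for Tuba1b. Actb kept a larger size at day 0 under each scaling, from -0.67 to -0.60. For Tuba1b the day 0 value ranged from -0.51 to -0.07, so whether it was larger at day 0 depended on the scaling. These were 2 of 5 cytoskeleton genes on the list, with a median of -0.28 at day 4.

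Nono, an RNA-binding protein of the paraspeckle, a nuclear body built on a long noncoding RNA, changed order between the days. It was at 3439 in C3H10T1/2 (3203 to 3572) and 4781 in 3T3-L1 (4440 to 5162) at day 4, a difference of 0.51 ± 0.06 or 1.42-fold, with no overlap of spots. At day 0 it was at 5154 and 4598, a difference of -0.44 ± 0.05. The level in C3H10T1/2 was lower at day 4 by 0.76 ± 0.04, and that in 3T3-L1 was higher by 0.18 ± 0.05.

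**Figure D4:**
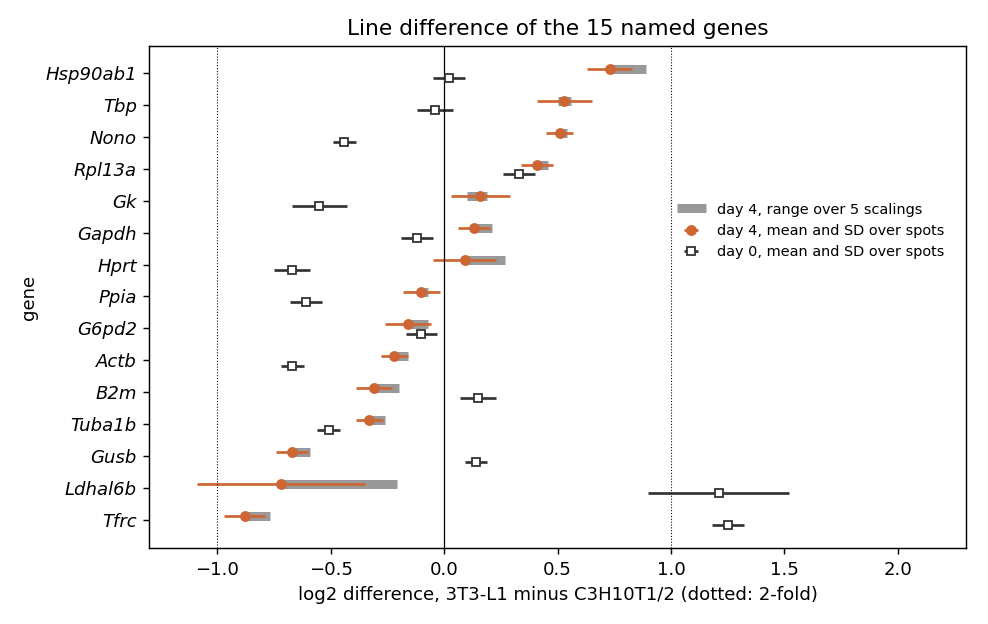
Line difference of each named gene (horizontal axis, log2, 3T3-L1 minus C3H10T1/2) at day 4 (filled circles) and day 0 (open squares), with bars for the SD over spots and grey bands for the range over 5 scalings of the day 4 value; dotted lines mark 2-fold, and Ldhal6b is drawn as measured although its dimmer array was not well above background. Tfrc moved from 1.25 at day 0 to -0.88 at day 4, and Nono from -0.44 to 0.51.

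Control probes of the array named for Gapdh and Pgk1, each with a species and a 3 or a 5 in its name, gave another reading of glycolytic genes. They were printed in 10 spots each. At day 4 all 6 Gapdh control probes were higher in 3T3-L1, by 0.28 to 1.01, while the Gapdh probe with the RefSeq accession gave 0.13. The mouse Gapdh probe marked 5 was at 50589 in C3H10T1/2 and 83699 in 3T3-L1, a difference of 0.76 ± 0.08. The mouse Gapdh probe marked 3 was at 72348 and 85799, a difference of 0.28 ± 0.09. The human Gapdh probe marked 5, at 5676 and 11145, was the only one of these control probes past 2-fold, with 1.01 ± 0.05 or 2.01-fold. Probes for the same gene thus disagreed in size by more than their spot SD.

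Pgk1 encodes phosphoglycerate kinase, a later step of glycolysis. Its 6 control probes were also above 0 at day 4, by 0.04 to 0.42. The spots of the 2 arrays overlapped for the probes marked 3, at 0.04 ± 0.04 (mouse), 0.11 ± 0.10 (human) and 0.26 ± 0.32 (rat). All 6 Pgk1 probes had been further apart at day 0, at 0.22 to 1.06. The Gapdh control probes had moved the other way, from 0.05 to 0.63 at day 0. In each species the difference between the lines was larger on the probe marked 5 than on the probe marked 3 at day 4, by 0.48 (mouse), 0.12 (rat) and 0.44 (human) for Gapdh and by 0.31, 0.04 and 0.31 for Pgk1. The same order was present at day 0 in all 6 pairs, by 0.15, 0.31 and 0.47 for Gapdh and by 0.48, 0.22 and 0.79 for Pgk1, larger than at day 4 in all but the mouse Gapdh pair. Which day had the larger contrast depended on the scaling for mouse Pgk1 (0.30 at day 4 and 0.23 at day 0 with quantile normalization) and human Pgk1 (0.12 on both days with normexp). The rat contrasts at day 4, 0.12 for Gapdh and 0.04 for Pgk1, were below the spot SD of the rat probes marked 3 (0.13 and 0.32). The marks are taken here as the ends of the transcript, which the files do not state. The part of RNA quality or labelling in this contrast was not tested.

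**Figure D5:**
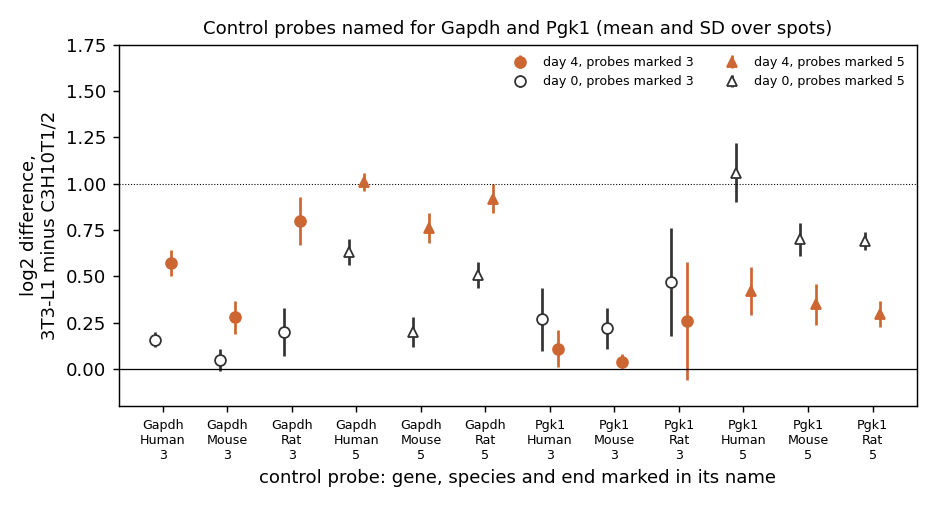
Line difference (vertical axis, log2, 3T3-L1 minus C3H10T1/2) of the 12 control probes named for Gapdh and Pgk1, grouped along the horizontal axis by gene, species and end mark, at day 4 (filled) and day 0 (open), with bars for the SD over spots and a dotted line at 2-fold. At day 4 the Gapdh probes range from 0.28 to 1.01 and the Pgk1 probes from 0.04 to 0.42.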

How the data were processed

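The scanner files deposited by the authors hold an intensity per spot that Agilent Feature Extraction 11.0.1.1 had background-subtracted and detrended, per the file headers, with no scaling between arrays. The headers give 1 slide and 1 scan for the 4 arrays, which leaves no batch to fit. A second deposited table holds the authors' log2 values, whose method is not given in the sources used here. Its column medians were 5.93 each, and over 60804 probes each column correlated with its array's log2 intensity at r between 0.9994 and 1.0000, so the direction was the same and genes were not centred. It was used as an alternative only.

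Each processed intensity was put on the log2 scale and the 75th percentile of its array was subtracted. Control spots, 15 negative-control probes and 15 nonuniform probes were left out, as were 61 outlier spots of the repeated probes, which left 60900 probes. Spots of a repeated probe were averaged, and such a probe counted as above background where at least 50% of its spots did. Probes that either array of a pair showed above background were tested, and those 2-fold apart or more were counted. The trace of which line had moved did not apply this filter to the pairs of days within a line. A probe dim on 1 array was given a bound as described with its first count. Scaling, background correction and filters were varied as alternatives: quantile normalization, normexp (offset 50) and then quantile scaling (limma 3.58.1, R 4.3.3), another percentile, the authors' values, other filters and other folds. The counting code was checked on simulated data, with changes well past 2-fold in bright probes. That simulation did not cover bounds for dim probes or differences near the 2-fold cut.

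The rule for names took all genes tied to a probe, up to 25, and the 2 highest and 2 lowest probes without a gene. All 15 RefSeq accessions matched a gene of assembly GRCm38; coordinates are left out because the array was designed on an older build. Of 13 gene lists, 8 (among them lipid synthesis, cell cycle and all cell type markers) held no gene that could be named. The members and the lists were chosen with earlier results of these data known. Figures were drawn with matplotlib 3.10.9.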

Additional observations from a re-analysis of the deposited data

Results flagged for a closer look

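For 4 named genes every paired spot of the day 4 arrays differed one way and every paired spot of the day 0 arrays the other way. The day 4 differences were 0.51 for Nono, -0.31 for B2m, -0.67 for Gusb and -0.88 for Tfrc. With 1 array per group, this change of order between the days was not tested.

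Among 53 array control probes outside the comparison, 15 were above background on a day 4 array and 4 were past 2-fold, on the 3T3-L1 side. Another probe, ETG10_13482, differed the other way and missed 2-fold only through the bound: it was at 46.3 in C3H10T1/2, with 9 of 9 spots above background, and at 8.80 in 3T3-L1, with 0 of 11, a measured difference of -2.48 but at least 1.91-fold. The spike-in control probe (+)E1A_r60_a20 was at 6.55 in C3H10T1/2 and 56.5 in 3T3-L1, a log2 difference of at least 1.20. DCP_20_0 was at 6.50 and 58.2 (at least 1.24), DCP_20_1 at 14.8 and 69.1 (at least 1.47) and DCP_20_3 at 6.56 and 52.2 (at least 1.08). The 4 on the 3T3-L1 side were not well above background in C3H10T1/2 on either day. They were brighter in 3T3-L1 at day 0 too, at 122, 139, 127 and 111.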

How the results depend on the processing

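Each group had 1 array, so the spread between cultures is unknown, bounds depend on the dimmest signal above background, and only 15 probes have a gene. No paired analysis was possible because each group had 1 array and no result came from a test. Of 48 counts, medians and correlations recomputed under other settings, 33 stayed close to the value reported and 15 moved. Close meant within a ratio of 1.5, or within 0.1 for a correlation. Counts within that margin still changed: with no filter, 3729 probes were higher in 3T3-L1 and 4457 in C3H10T1/2. With measured signals in place of the bounds, the counts were 3082 and 3687. Of 135 recomputed day 4 differences of genes and control probes, 30 moved by more than their spot SD and none changed sign. At day 0 Gapdh changed sign (-0.12 to 0.28). With normexp, 1471 probes were higher in 3T3-L1 and 1746 in C3H10T1/2, 704 and 562 were shared with day 0, and the median size of the difference was 0.253; the cause was not tested. Of the probes called at 2-fold, 55.4% and 53.7% were kept with normexp, and 97.5% and 96.7% with quantile normalization. The 3T3-L1 share of called probes was 44.4% to 46.9% over the 5 scalings. By construction, a filter on both arrays left 649 and 649 shared with day 0, a 1.5-fold threshold gave 6265 and 6531 probes with 2246 and 2275 shared, and a 4-fold threshold gave 696 and 911 with 415 and 304 shared. Keeping all outlier spots, an alternative chosen after the data were seen, changed no direction.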
